A study of Homo sapiens with 12 samples.

Results

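F-box proteins are the substrate receptors of the SCF ubiquitin ligases, and 65 genes of this machinery were followed in A549 cells, a human lung adenocarcinoma line. The genes were taken by symbol from the deposited gene table: every FBXO, FBXL or FBXW gene with a number, plus SKP1, SKP2, CUL1, RBX1, BTRC and CCNF, while FBXW10 and 1 other F-box gene (2 in all) were left out. They were 65 of the 22564 rows of the table. Of these, 62 were receptor genes and 3 genes of the ligase core, and each symbol had 1 row. In the reference 64 of the 65 are protein-coding, and FBXL21 is a transcribed pseudogene. The level of a gene did not enter the choice, except that only genes with a row could be taken. No protein-coding row had a mean under 1.52.

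Total RNA was depleted of ribosomal RNA and sequenced from 12 libraries, 6 from siYTHDC1 cells and 6 from siSCR cells. siYTHDC1 cells had received siRNA against YTHDC1, a nuclear reader of the m6A mark on RNA, and siSCR cells a scrambled control siRNA. No other label differed between the groups. Both were transfected at 40 nM for 48 to 72 h and carried no stated drug treatment, so the results describe a single cell line after siRNA transfection. The value used here is the authors' mean normalized count of each gene over all 12 libraries. It does not separate siYTHDC1 from siSCR cells, so no difference between the groups is reported, and it carries no SD, depth or interval. Whether neighbours in an order of levels differ beyond the spread between libraries therefore cannot be read from it. YTHDC1 itself had a pooled mean of 232, which cannot serve as a check of the knockdown.

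The cell line was checked against marker genes. Of 12 epithelial and A549 markers 9 were in the table, among them the keratin genes KRT8 at a mean of 27600 and KRT18 at 14908 and the reductase gene AKR1B10 at 24595, and the median of these 9 per kb of exon stood at the 99.7th percentile of protein-coding genes. EPCAM, an epithelial adhesion gene, was low at 58.4, and NKX2-1, SFTPC and SFTPB, which mark lung epithelium, had no row. Of 10 markers of blood, endothelial and stromal cells, 5 were listed, with means from 2.62 for CD68 to 194 for COL1A1 and with the endothelial gene CDH5 at 7.19, while PTPRC, CD3E, PECAM1 and VWF were among those with no row.

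An SCF ligase is built on the cullin CUL1, which holds the RING protein RBX1 at its C-terminal end and the adaptor SKP1 at its N-terminal end. SKP1 binds the F-box, a short motif that gives the receptors their name, and the rest of the receptor selects the substrate to be ubiquitinated. FBXW proteins read substrates with WD40 repeats, FBXL proteins carry leucine-rich repeats, and FBXO proteins hold other domains or none that is known. Receptors exchange on a common pool of CUL1, and the attachment of NEDD8 to the cullin switches the ligase on.

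A few sequences show how alike some receptors are at the level of the bases that were counted. The longest identical stretch between the coding sequences of any pair of receptors over 40% identical in protein was 111 bases, shared by FBXO44 and FBXO6. It lay near the start of both coding sequences, at coding bases 19 to 129 of FBXO44 and 40 to 150 of FBXO6, and within 1 exon of each gene. On GRCh37 it is chr1:11715911-11716021 on the plus strand in FBXO44 and chr1:11728755-11728865 on the plus strand in FBXO6. The stretch is shown once because it reads the same in both genes.
FBXO44 and FBXO6: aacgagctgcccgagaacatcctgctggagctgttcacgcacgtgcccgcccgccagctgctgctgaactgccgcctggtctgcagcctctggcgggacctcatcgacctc

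BTRC and FBXW11, which encode the paralogues beta-TrCP1 and beta-TrCP2, were the most alike in protein, at 77.4% identity, but their longest identical coding stretch was 32 bases. On GRCh37 it is chr10:103281510-103281541 on the plus strand in BTRC and chr5:171337662-171337693 on the minus strand in FBXW11.
BTRC and FBXW11: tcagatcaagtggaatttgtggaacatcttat

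The start-site regions of 4 receptors, 2 near the top and 2 at the bottom of the order of levels, are shown with every CpG dinucleotide in capitals. Each is the RefSeq window on GRCh38.p14 from 250 bases before the annotated start to 50 bases after it, 300 bases in all, written in the direction of transcription. FBXW5 (chr9:136944689-136944988, minus strand) holds 39 CpG dinucleotides, FBXW11 (chr5:172006589-172006888, minus strand) 27, FBXO47 (chr17:38967354-38967653, minus strand) 16 and FBXL22 (chr15:63597137-63597436, plus strand) 8.
FBXW5: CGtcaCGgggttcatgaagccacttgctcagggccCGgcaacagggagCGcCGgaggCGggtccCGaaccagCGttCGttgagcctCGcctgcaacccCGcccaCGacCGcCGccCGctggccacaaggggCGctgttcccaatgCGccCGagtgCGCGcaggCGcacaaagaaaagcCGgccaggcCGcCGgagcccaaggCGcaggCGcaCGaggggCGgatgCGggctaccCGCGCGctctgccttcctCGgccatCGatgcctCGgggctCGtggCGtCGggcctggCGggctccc
FBXW11: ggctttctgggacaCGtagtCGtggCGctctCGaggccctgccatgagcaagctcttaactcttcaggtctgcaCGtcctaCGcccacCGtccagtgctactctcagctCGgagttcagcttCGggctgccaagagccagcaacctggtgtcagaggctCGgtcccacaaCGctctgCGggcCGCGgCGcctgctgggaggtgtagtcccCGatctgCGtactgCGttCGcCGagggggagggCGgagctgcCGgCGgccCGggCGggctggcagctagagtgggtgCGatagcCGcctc
FBXO47: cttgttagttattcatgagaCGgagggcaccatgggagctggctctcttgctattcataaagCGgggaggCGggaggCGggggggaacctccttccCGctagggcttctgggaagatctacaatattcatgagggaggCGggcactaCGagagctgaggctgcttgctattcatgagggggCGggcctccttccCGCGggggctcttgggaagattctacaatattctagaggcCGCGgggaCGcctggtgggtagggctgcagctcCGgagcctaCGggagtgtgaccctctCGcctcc
FBXL22: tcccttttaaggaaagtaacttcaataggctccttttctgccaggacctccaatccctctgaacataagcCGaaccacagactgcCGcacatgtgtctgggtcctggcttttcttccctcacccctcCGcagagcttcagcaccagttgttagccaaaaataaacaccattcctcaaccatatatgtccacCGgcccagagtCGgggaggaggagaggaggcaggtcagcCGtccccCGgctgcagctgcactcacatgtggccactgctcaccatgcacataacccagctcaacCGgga

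The pooled means of the 65 genes ranged from 2.13 for FBXO47 to 1886 for FBXW2. Their median was 348, against 313 over the 14100 protein-coding rows. Most members lay in the middle of this scale. Means of 100 to 1000 were found for 39 of the 65 members, or 60.0%, and for 49.7% of protein-coding rows. Means of 1000 or more were found for 8 members, or 12.3%, and for 20.3% of protein-coding rows. At the low end, 3 members, FBXO47, FBXL22 and FBXO24, were under 10, or 4.62%, against 11.7% of protein-coding rows.

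**Figure D1:**
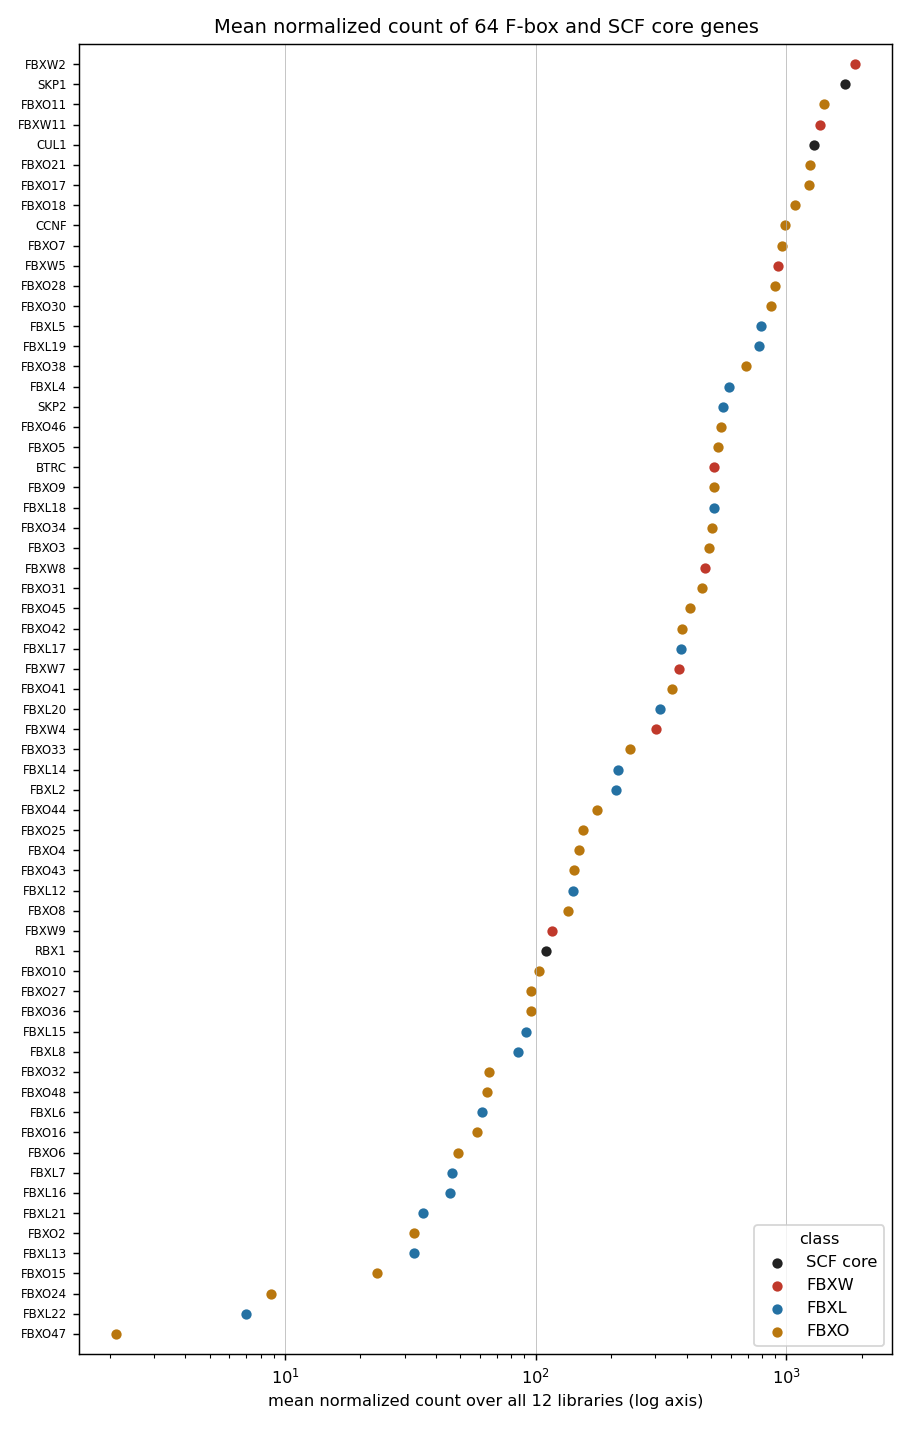
Mean normalized count over all 12 libraries (log axis) of 64 of the 65 genes, sorted from the highest at the top, with 1 point per gene coloured by class. FBXW2 at 1886 and SKP1 at 1709 stand at the top and FBXO47 at 2.13 at the bottom, and the points carry no error because the value is pooled.

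A long gene collects more reads than a short one at the same level. Levels of different genes were therefore compared as mean normalized count per kb of exon, using the union of all annotated exons. The exons are from a later GENCODE release than that of the counting and can include bases where no read was counted. Per kb of exon the median of the members was 49.98, at the 46.2nd percentile of protein-coding genes. The median of protein-coding genes was 58.6 per kb, with quartiles of 13.0 and 140. Of the 65 members, 30 were above the median protein-coding gene. As a group the members thus lay close to the middle of the genes of the table, and they spread from the 5.38th percentile, for FBXO47, to the 90.8th, for CUL1.

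CUL1, the scaffold, had a level of 309 per kb, the highest of all 65 with exon length, from a mean of 1284. FBXO17 stood above it with each of the 3 other gene lengths tried (longest transcript, coding length and canonical transcript). SKP1, the adaptor that every receptor binds, had a mean of 1709 and a level of 135 per kb, at the 73.9th percentile. RBX1, the RING subunit that recruits the E2 enzyme, was the lowest of the core at a mean of 110 and 35.6 per kb. The places of all 3 moved with the length used. With coding length in place of exon length, SKP1 moved to the 97.6th percentile and RBX1 to the 62.6th, while CUL1 moved down to the 75.6th.

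The 8 FBXW receptors had a median level of 84.6 per kb, at the 60.2nd percentile, and 6 of the 8 were above the median protein-coding gene. Among rows with a mean of at least 100 only, the same class median lay at the 43.2nd percentile, on the other side of the median gene. FBXW5 led with exon length at 280 per kb, from a mean of 923, followed by FBXW11 at 244 and FBXW2 at 166 per kb. With coding length FBXW2 and FBXW11 stood above FBXW5, and FBXO17 stood above FBXW5 with each length but that of all exons. FBXW2 had the highest mean of all members but a long union of exons, which placed it lower per kb. With exon length the lowest of the class were FBXW4 at 60.2, FBXW9 at 55.3 and FBXW7 at 33.0 per kb. FBXW7, the receptor for cyclin E, MYC and NOTCH1, was under the median protein-coding gene with each of the 4 gene lengths tried.

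Within the beta-TrCP pair, which reads phosphorylated degrons in targets such as IκBα and β-catenin, FBXW11 stood above BTRC. FBXW11 had a mean of 1358 and BTRC 516, and per kb the levels were 244 and 78.1. The order was the same with each of the 4 gene lengths.

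The 19 FBXL receptors had the lowest class median, 32.3 per kb at the 37.4th percentile, and 5 of the 19 were above the median protein-coding gene. With the other lengths the FBXL median stayed the lowest but was close to the FBXO median. The percentiles of FBXL and FBXO were 43.0 and 44.6 with the longest transcript and 43.95 and 45.6 with coding length. With the canonical transcript they were 40.2 and 41.95. At the top with exon length, FBXL5, the iron-sensing receptor for iron regulatory proteins, had 169 per kb from a mean of 795. FBXL19, which binds CpG-rich DNA through a zinc finger, had 160 per kb. FBXL14, a receptor for SNAIL, came next at 78.7 per kb. With coding length SKP2 led the class at 408 per kb, above FBXL5 at 384 and FBXL19 at 375. At the bottom with exon length were FBXL21 at 9.21, FBXL13 at 5.29 and FBXL22 at 1.93 per kb. FBXL22 is known from heart and skeletal muscle of the mouse. FBXL21 is annotated as a pseudogene in the reference.

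SKP2, the receptor for the CDK inhibitor p27, had a mean of 561 and, at 32.3 per kb, was the median gene of the FBXL class. Its place moved more than that of any other member with the 4 gene lengths, from the 37.4th percentile with all exons to the 47.5th with the longest transcript, the 62.3rd with the canonical transcript and the 67.8th with coding length.

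The 35 FBXO receptors had a median level of 49.98 per kb, at the 46.2nd percentile, and 17 were above the median protein-coding gene. Their levels ran from 0.923 to 256 per kb. With exon length FBXO17, which carries an F-box-associated domain, led at 256 per kb from a mean of 1228. FBXO21 followed at 181 and FBXO18 at 162 per kb. FBXO18, listed as FBH1 in the reference, encodes a DNA helicase that carries an F-box. FBXO15, FBXO24 and FBXO47 closed the class with exon length, at 3.74, 2.65 and 0.923 per kb.

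**Figure D2:**
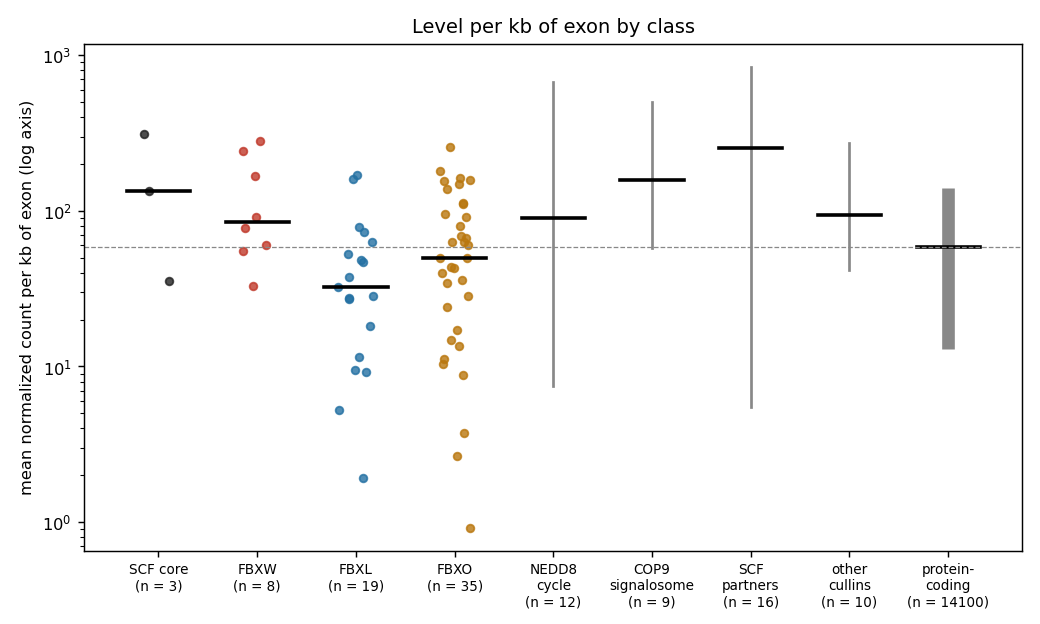
Mean normalized count per kb of exon (log axis) of the 65 genes by class, with 1 point per gene and a black bar at the class median. Grey lines give the range of 4 lists of other genes, of the SCF cycle and of other cullin ligases. The grey box gives the quartiles of all protein-coding genes, whose median of 58.6 is drawn as a dashed line. The FBXW median, 84.6, lies above the dashed line (among rows with a mean of at least 100 it falls below their median) and the FBXL median, 32.3, below it.

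Grouped by what the receptors are known to do, the members of one group often differed widely. These groups were set after the values had been seen and are described without a test. Among 6 cell cycle regulators, CCNF, which encodes cyclin F, had the highest level with exon length, at 157 per kb from a mean of 988. FBXO5, or EMI1, an inhibitor of the anaphase-promoting complex, had 139 per kb and its germ-cell relative FBXO43, or EMI2, 35.8 per kb. FBXO31, a receptor for cyclin D1, had 66.8 per kb, and SKP2 and FBXW7 had 32.3 and 33.0 per kb. SKP2 was the lowest of the 6 with exon length only, and FBXO43 was the lowest with the 3 other lengths. With the canonical transcript FBXO5 stood above CCNF, at 261 against 234 per kb.

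The 5 receptors with an F-box-associated domain, which in FBXO2 and FBXO6 binds sugar chains of glycoproteins, differed widely among themselves. FBXO17 stood at 256 per kb, while FBXO44, FBXO27, FBXO6 and FBXO2 had 49.98, 34.4, 28.3 and 10.3 per kb. FBXO17 and FBXO27 are 58.3% identical in protein and lie 15.0 kb apart on chromosome 19, and their means were 1228 and 95.9. FBXO17 was above the other 4 with each of the 4 gene lengths.

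The 4 receptors known from germ cells or embryonic stem cells, FBXO15, FBXO24, FBXO43 and FBXO47, had a median of 3.20 per kb, and none of the 4 was above the median protein-coding gene. Of the pair linked to muscle wasting, FBXO30, or MUSA1, had 95.9 per kb from a mean of 868, while FBXO32, or atrogin-1, had 8.77 per kb from a mean of 64.9. The 4 receptors known from neurons ranged from 11.5 per kb for FBXL16 to 69.3 per kb for FBXO45, with FBXO41 at 43.2 and FBXL20 at 28.3 per kb.

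Other genes of the SCF cycle and genes of other cullin ligases were taken from 4 lists, each with a higher median than the receptors. The 16 SCF partner genes had a median of 254 per kb, at the 87.8th percentile, and 14 were above the median protein-coding gene. These genes cover E2 enzymes, exchange factors and cofactors, and also RNF7 and ARIH1. They ranged from CKS2 at 839 per kb, whose relative CKS1B helps SKP2 to bind p27, to CAND2 at 5.53 per kb. CAND1, the factor that exchanges receptors on CUL1, had 295 per kb, and CAND2 is its paralogue. The 9 genes of the COP9 signalosome, which takes NEDD8 off cullins, had a median of 158 per kb, with 8 above the median gene and a range from COPS3 at 497 to COPS5 at 57.9 per kb. COPS5 encodes the catalytic subunit. The NEDD8 list holds genes for the attachment and processing of NEDD8, and also GLMN, at 87.9 per kb. Its 12 genes had a median of 89.3 per kb, with 8 above the median gene. They ran from the E2 gene UBE2M at 669 to the protease gene SENP8 at 7.52 per kb. The 10 genes of other cullin ligases had a median of 93.6 per kb, with 6 above the median gene, and ran from DDB1 at 271 to CUL9 at 41.6 per kb. By comparison, the 62 receptors had a median of 49.8 per kb and 28 of the 62 were above the median gene.

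Members overlapped in part with other genes, which bears on how their reads could be assigned. The kit kept the strand, but whether the counting used it is not given in the sources used here. Exons are those of the GENCODE release used here, which is later than that of the counting. Of the 65 members, 28 share exon bases with a table gene on the other strand and 1 with a gene on the same strand. The share of all protein-coding genes with such an overlap was not computed. In 8 members the gene on the other strand had the higher mean. FBXL22 shares 53.2% of its exon bases with USP3-AS1 and had a mean of 6.98 against 50.01, and FBXO6 shares 50.5% with MAD2L2 and had 49.0 against 173. FBXO24 shares 32.6% with PCOLCE-AS1 at 8.83 against 16.6, and FBXL6 shares 31.7% with SLC52A2 at 61.1 against 256. FBXO11, a receptor for BCL6 with the third highest mean of all members, shares 31.5% with the mismatch repair gene MSH6 at 1418 against 2396. The overlaps of FBXL16 with LA16c-313D11.12, FBXO31 with MAP1LC3B and FBXO2 with FBXO44 cover 1.44%, 0.868% and 3.64% of the exon bases. How the overlaps changed the counts of these 8, in either direction, was not tested. FBXO16 shares 51.7% of its exon bases with ZNF395 on the same strand, with a mean of 58.6 against 261.

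Sequence shared with other genes touched fewer members. Of the 65 canonical transcripts, 40 have no stretch of 50 bases that also occurs in a transcript of another gene and 25 have at least 1. In 4 such stretches start at over 10% of positions: FBXO10 at 60.8%, FBXL8 at 31.4%, FBXO17 at 18.4% and SKP1 at 12.7%. No gene of the table shares them with FBXO10 or FBXL8. The table gene that shares most covers 0.876% of positions in FBXO17 and 1.93% in SKP1, and how far these stretches bear on the levels was not tested. The share of all protein-coding genes with such a stretch was not computed.

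Among 2016 pairs of translated coding sequences, 8 pairs were over 40% identical. After BTRC and FBXW11 came FBXL2 with FBXL20 at 75.9%, FBXO44 with FBXO6 at 65.2%, FBXO25 with FBXO32 at 61.7%, FBXO17 with FBXO27 at 58.3%, and FBXO2 with FBXO6 at 44.6%, with FBXO44 at 42.2% and with FBXO27 at 40.9%. FBXL2 and FBXL20 had 27.3 and 28.3 per kb of exon, but 54.6 and 30.3 per kb of canonical transcript, and FBXO25 and FBXO32 had 13.4 and 8.77 per kb, while FBXO17 and FBXO27 stood at 256 and 34.4 per kb. The proteins ran from 108 residues for RBX1 to 1188 for FBXO38, with a median of 485.

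The members lie on 20 chromosomes, with 8 on chromosome 5, and 7 have another member within 100 kb. FBXO2, FBXO44 and FBXO6 lie together on chromosome 1, where FBXO2 and FBXO44 overlap on opposite strands and FBXO6 follows FBXO44 after 0.873 kb. Their levels were 10.3, 49.98 and 28.3 per kb. BTRC and FBXW4 lie 53.3 kb apart on chromosome 10, at 78.1 and 60.2 per kb. The next pair, FBXW8 and FBXO21 on chromosome 12, is 111 kb apart and outside the limit.

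The choice of gene length moved single members more than the classes. Over the 4 lengths (all exons, longest transcript, longest coding sequence and canonical transcript) the percentile of a member ranged over a median of 11.04 points, and 39 members ranged over more than 10 points. Of the 65 members, 20 were above the median protein-coding gene with all 4 lengths and 27 under it with all 4. FBXL21, which has no coding length, was under it with the other 3. For the remaining members the side depended on the length. FBXO3 ranged from the 41.0th percentile with all exons to the 71.1st with the canonical transcript.

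**Figure D3:**
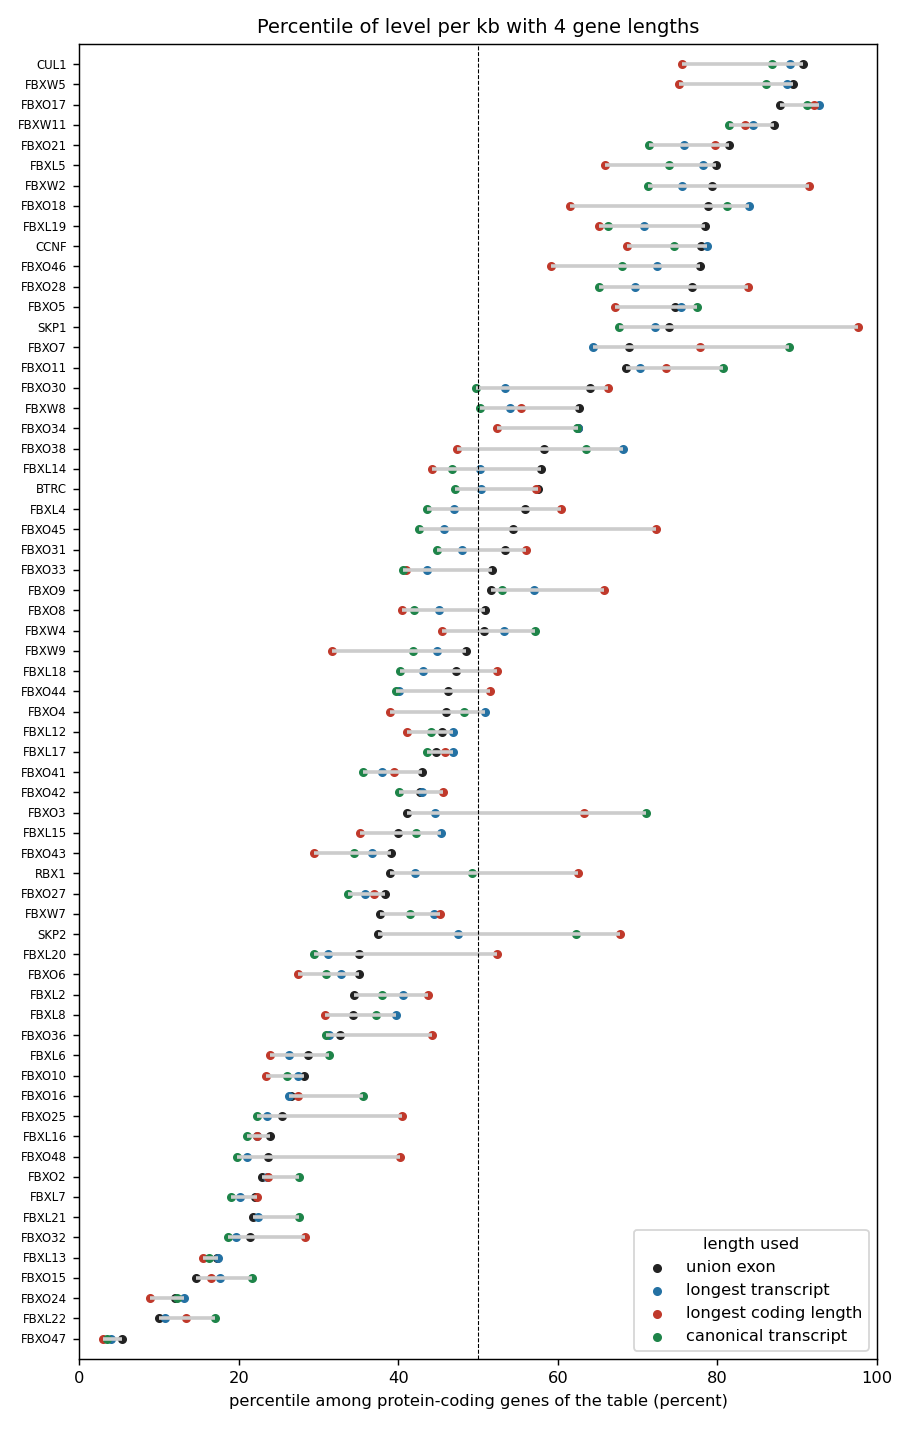
Percentile of 64 of the 65 genes among protein-coding genes of the table (percent) with 4 gene lengths, as 1 coloured point per length joined by a grey line, sorted by the percentile with all exons. The dashed line marks the median gene. SKP2 ranges from 37.4 to 67.8 and FBXO47 stays at or under 5.38.

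Start-site windows were found for 50 of the 65 members, and these held more CpG dinucleotides than those of all genes with a window. Taking the richest window of each gene, the members had a median of 31 CpG in 300 bases, against 16 over the 27305 genes with a window. Those genes include non-coding genes and genes with no row in the gene table, while every member had a row. Whether the members differ in CpG or motifs from protein-coding genes with a row was not tested. At least 20 CpG were found for 45 of the 50 members, or 90.0%, against 44.7% of all genes. The motif GGGCGG, the GC box, stood on either strand in a window of 44 members, or 88.0%, against 48.3% of all genes, and CCGGAAG, an ETS-type motif, in 13, or 26.0%, against 12.2%. CCAAT was found in 42.0% of members against 39.7% of all genes, and TATAAA in 8% against 14.0%. No motif contains another, though matches of some motifs, on either strand, can share letters at their ends. GGGCGG and CCGGAAG both contain a CpG, so their shares are not independent of the CpG counts, while CCAAT and TATAAA contain none. A gene counted if any of its windows matched, and the 50 members had 76 windows against 35116 for the 27305 genes. How far CpG content and window number bear on the motif shares was not tested, and a match is a description of the letters only.

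Among the members, CpG count and level went together weakly. Spearman's rho was 0.28 over the 50 genes, which share the same 12 libraries, and the 25 members of higher level per kb had a median of 34 CpG against 29 in the 25 of lower level. In the windows printed above, FBXW5 at 280 per kb holds 39 CpG and FBXW11 at 244 per kb holds 27, while FBXO47 at 0.923 per kb holds 16 and FBXL22 at 1.93 per kb holds 8. There were exceptions in both directions. FBXO28, named after its values were seen, had 9 CpG and 150 per kb, and FBXL13, a gene known from the dynein regulatory complex of cilia, had 36 CpG and 5.29 per kb.

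**Figure D4:**
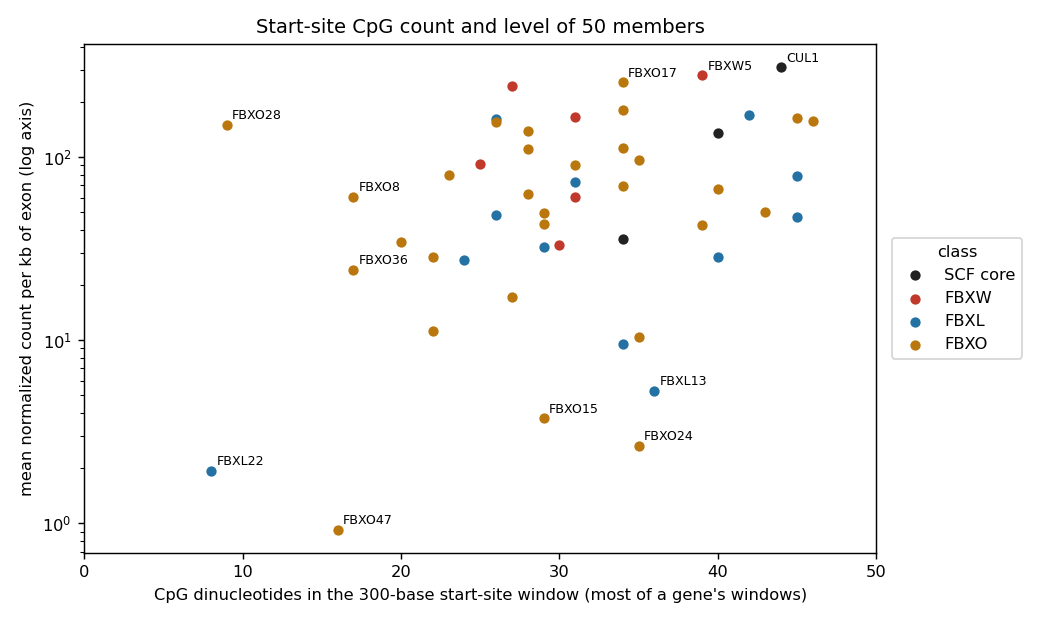
CpG dinucleotides in the richest 300-base start-site window (x axis) and mean normalized count per kb of exon (y axis, log) of the 50 members with a window, 1 point per gene coloured by class. The points spread widely: FBXO28 with 9 CpG lies at 150 per kb and FBXO24 with 35 CpG at 2.65 per kb.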

How the data were processed

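The gene table deposited by the authors covers total RNA from the A549 line. According to the submitters' processing notes and the study's methods, reads were aligned to hg19 with STAR, counted with HTSeq and compared with DESeq2, with a term for 2 sequencing batches. The strand setting of the counting is not given in the sources used here. The value used is a signal that the authors computed, the mean over all 12 libraries of counts divided by size factors. A member and 1 marker gene are counted but not reported here by name. The other columns hold the authors' own comparison of siYTHDC1 with siSCR cells (fold change, its standard error, test statistic, p and adjusted p) and were not used, so depth per library, replicate error and batch could not be examined from the table.

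Gene IDs were matched to GENCODE release 44 on GRCh37, which covered 21798 of 22564 rows (96.6%) and all 65 members. The study's methods name an earlier GENCODE release for the counting. Exon lengths and overlaps given here can therefore differ from those of the counting. Level was the mean divided by the union exon length in kb. A percentile is the percentage of protein-coding rows at or below a value, out of 14100 rows with exon length. With another length only rows that have that length entered, and with a minimum mean only rows that reach it. Genes without a row do not enter a percentile. BTRC was counted as FBXW, SKP2 as FBXL and CCNF as FBXO. Protein identity was computed from translated canonical coding sequences of 64 members by global alignment (Biopython 1.88) and divided by the longer length, a denominator set after the values were seen. Percentile and identity code was tested on simulated data. Promoters came from RefSeq (GRCh38.p14). Python 3.11.15 and pandas 2.3.3 were used. Named were SKP1, CUL1, RBX1, SKP2, BTRC and CCNF, the 5 highest and lowest members per kb, the 3 highest and lowest of each class, members within 100 kb of another, in pairs over 40% identical or under an other-strand gene of higher mean, and the ends of each list. Members and lists were chosen with earlier results of these data known. Role groups, the start-site motifs and the canonical transcript length were chosen after seeing the data, as were FBXO3 and FBXO28 and further members of the role groups, overlaps and lists.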

Additional observations from a re-analysis of the deposited data

How the results depend on the processing

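Of 36 values recomputed, 30 stayed within 10 percentile points or 1.5 times of the reported one. The number of members above the median protein-coding gene was 30 with all exons, 26 with the longest transcript, 31 of 64 with coding length and 24 with the canonical transcript, a length added after seeing the data. With rows under a mean of 100 left out, which also takes the low genes out of the comparison, the class medians moved to the 62.7th percentile for the SCF core, the 43.2nd for FBXW, the 25.05th for FBXL and the 35.0th for FBXO. Without members overlapped on the other strand the core was left with RBX1 alone, at the 38.9th percentile. With the canonical transcript the median of the other cullins moved from the 63.4th to the 75.5th percentile; the cause was not tested. No paired analysis was possible because the value is pooled over all libraries, and no library could be left out for the same reason. Each symbol had 1 row, so summing rows could change nothing, and the value from that setting is among the 30. The table gives no counts per library, so the precision of means under 10 cannot be given.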
